A study of Mus musculus with 2 samples.

Results

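The apelin and adrenomedullin systems of the lung were described through 7 genes, which are 7 of the 31053 genes in the count matrices. They are the 2 ligand genes Apln (apelin) and Adm (adrenomedullin), the apelin receptor gene Aplnr, the calcitonin receptor-like receptor gene Calcrl, and its partner genes Ramp1, Ramp2 and Ramp3. Members are the rows of both matrices that carry one of these symbols. The rule uses no measured value, although the set was put together with earlier results of these data known.

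Apelin is a secreted peptide that signals through Aplnr, a G protein-coupled receptor of ECs, and it is known as a vasodilator and as an angiogenic cue. Adrenomedullin is also a secreted vasodilator, and its gene is a known target of hypoxia-inducible factors. Its receptor is Calcrl, which reaches the cell surface only in a complex with a receptor activity-modifying protein. Ramp2 or Ramp3 makes the complex an adrenomedullin receptor, whereas Ramp1 makes it a receptor for calcitonin gene-related peptide. In the alveolar wall, aerocytes and general capillary cells are the recognised kinds of capillary EC, and Apln and Aplnr are known markers of them.

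The data are 1 single-cell library from the lungs of mice kept in normoxia (room air, 21% oxygen) and 1 from mice kept in hypoxia (10% inspired oxygen for 3 weeks), an exposure used to model pulmonary hypertension. Both groups were wild-type C57/B6 mice of 2 to 4 months of age, male according to the methods, and carried no transgene or deletion. Lung cells were depleted of leukocytes (CD45+) and epithelial cells (CD326+) on magnetic columns before capture, and the hypoxic cells came from 3 animals, while the number of normoxic animals and the pooling in each library are not given in the sources used here. A published data set that was analysed alongside these cells was not used here. With 1 library per condition, an effect of hypoxia and a difference between the libraries cannot be told apart, no test between conditions was possible, and all intervals below are 95% intervals for counting error only.

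The normoxia library held 2223 cells and 7630683 unique molecular identifiers (UMIs, each standing for 1 captured transcript), and the hypoxia library held 809 cells and 2685345 UMIs. Cells were kept if 200 to 4000 genes were detected and mitochondrial UMIs did not pass 5%, which left 1348 cells with a median of 3453 UMIs in normoxia and 689 cells with a median of 2224 in hypoxia. The 4 EC transcripts Cdh5, Pecam1, Cldn5 and Egfl7 were each found in 68.8% to 84.6% of the kept cells of a library, and Ptprc (CD45) and Epcam (CD326) in at most 1.19%. Clustering without the 7 genes gave 28 clusters, of which 17 were named EC-like from marker genes. They held 871 cells in normoxia and 592 in hypoxia, with medians of 3859 and 2636.5 UMIs.

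The EC-like cells were split by subtype markers that did not include the 7 genes. There were 119 aerocytes in normoxia and 60 in hypoxia, led by Ednrb, Car4 and Fibin. General capillary ECs, marked by Gpihbp1, Plvap and Cd93, numbered 646 and 122. ECs led by Ntrk2 and MHC class II genes numbered 14 in normoxia and 291 in hypoxia, so that this group was almost restricted to the hypoxia library. Arterial ECs numbered 22 and 17, venous ECs 51 and 20, and lymphatic ECs 11 and 5. A remainder of 8 and 77 ECs matched no subtype. The general capillary cells of both libraries sat in different clusters, since those of normoxia were mostly in clusters led by Lpl, Gm16486 and Socs3 (186, 143 and 116 cells), and 77 of the 122 of hypoxia were in a cluster led by Gm26917. In normoxia 285 of the 646 were in 3 clusters led by immediate-early genes such as Atf3, Ier3 and Socs3, against 27 of 122 in hypoxia. Levels below are UMIs of a gene per 1000000 UMIs of the same cells (CPM). UMIs were counted near the 3′ end of transcripts and are not scaled for length, so levels are compared between cell groups within a gene and not between genes.

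The upstream sequences are shown for both ligand genes. They are the 250 bases before the transcription start in RefSeq (GRCm38.p6), written 5′ to 3′ on the strand of the gene, and capitals mark ACGTG or GCGTG, the core letters bound by hypoxia-inducible factors, on either strand. The Adm window (chr7:110627407-110627656, plus strand) held 2 matches. The Apln window (chrX:48034854-48035103, minus strand) held 0.
Adm: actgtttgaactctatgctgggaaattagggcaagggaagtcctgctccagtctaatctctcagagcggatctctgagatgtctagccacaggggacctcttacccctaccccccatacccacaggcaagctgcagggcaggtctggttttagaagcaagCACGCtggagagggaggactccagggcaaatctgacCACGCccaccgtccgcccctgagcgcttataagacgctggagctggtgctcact
Apln: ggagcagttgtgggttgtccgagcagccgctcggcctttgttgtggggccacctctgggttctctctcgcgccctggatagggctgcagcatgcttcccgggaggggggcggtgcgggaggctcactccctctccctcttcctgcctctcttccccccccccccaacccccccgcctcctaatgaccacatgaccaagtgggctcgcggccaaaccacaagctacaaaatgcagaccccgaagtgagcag
Of 32851 promoter windows of the same length, 38.6% held at least 1 match and 16.7% held 2 or more, so that a window with 2 is common and a window with none more so. The windows of Calcrl and Ramp1 held 0 matches and that of Ramp3 held 2. These letters describe the windows and were not tested as binding sites.

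Apln was nearly restricted to aerocytes in both libraries. The gene (ENSMUSG00000037010) spans chrX:48025146-48034853 on the minus strand of GRCm38. Aerocytes held 277 Apln UMIs in normoxia, a level of 396 CPM (350 to 445), and 245 in hypoxia, a level of 730.3 CPM (642 to 828). General capillary ECs, the most numerous subtype of normoxia, held 17 UMIs (7.13 CPM) there and 4 (12.1 CPM) in hypoxia. The Ntrk2-led ECs of hypoxia held 18 UMIs (16.1 CPM) in 291 cells. Venous ECs held 0 and 1 UMIs, arterial ECs 1 and 0, and lymphatic ECs 0 in both libraries. The ECs of no subtype held 1 UMI in 8 cells of normoxia and 8 UMIs (65.4 CPM, 28.2 to 129) in 77 cells of hypoxia, the next highest level after aerocytes among the EC groups of that library. The aerocyte level was therefore 60.1 times (37.8 to 101) that of all other ECs in normoxia and 41.2 times (28.3 to 62.0) in hypoxia. Among all genes with at least 50 UMIs, 14.4% were at least 1.5-fold higher in aerocytes than in other ECs of normoxia and 15.7% in hypoxia, and 21.1% and 25.0% were lower. Outside the ECs, 8 Apln UMIs were counted in 477 cells of normoxia and 3 in 97 cells of hypoxia.

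Within aerocytes, Apln was 1.85-fold (1.55 to 2.20) higher in the hypoxia library. It was found in 76 of 119 aerocytes (63.9%) in normoxia and in 42 of 60 (70.0%) in hypoxia, at medians of 6120 and 4970 UMIs per cell. In fibroblast-like cells led by Pdgfra, taken as a group outside the endothelium, 1 of 83 cells (1.20%) at a median of 6809 UMIs held an Apln UMI. After every cell was thinned to 1000 UMIs, the shares of aerocytes with Apln were 26.4% (29 of 110) in normoxia and 50% (23 of 46) in hypoxia, with 9 and 14 shallower cells left out. Thinned to 500 UMIs, with no cell left out, they were 12.6% and 20%, at overlapping intervals (7.23 to 19.9 and 10.8 to 32.3). The size of the difference in shares thus moved with the depth and with the shallow cells left out. The level per cell also differed, since the median aerocyte held 1 Apln UMI in normoxia and 2 in hypoxia, and 5 or more UMIs were found in 20 of 119 and 21 of 60 cells. The highest cell held 18 UMIs in normoxia and 21 in hypoxia, and the 3 highest cells gave 17.0% and 20.8% of the aerocyte UMIs, so that the level did not rest on a few cells. Among genes with at least 50 UMIs in aerocytes, 8.55% were at least 1.5-fold higher and 10.8% lower in hypoxia, and the median log2 ratio was 0.01.

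**Figure D1:**
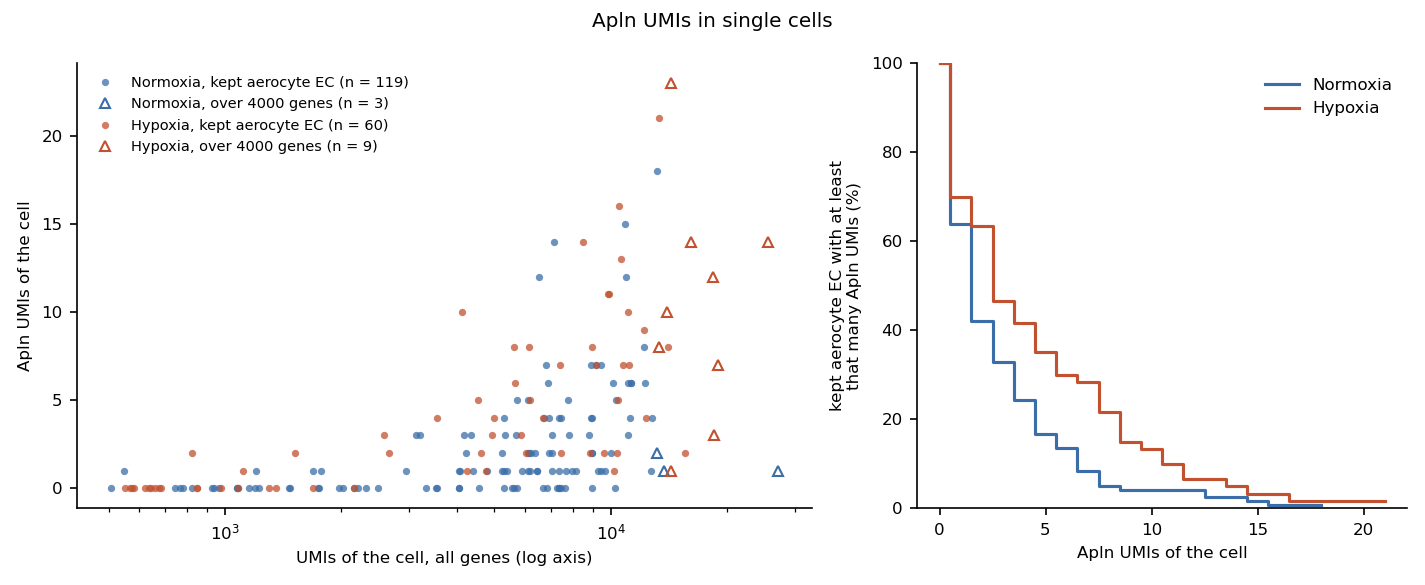
Apln UMIs of single cells against all UMIs of the cell on a log axis (left), with filled points for aerocytes within the limits and open triangles for cells with Apln, Car4 and Ednrb over 4000 detected genes, and the percentage of kept aerocytes with at least a given number of Apln UMIs (right). Kept aerocytes reach 18 Apln UMIs in normoxia (n = 119) and 21 in hypoxia (n = 60), and the hypoxia line lies above the normoxia line from 1 UMI on.

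The aerocytes formed 2 clusters, and Apln was higher in hypoxia in both. In the deeper cluster, led by Ednrb (99 and 39 cells), Apln stood at 404 and 752.8 CPM in the normoxia and hypoxia libraries, a ratio of 1.86 (1.56 to 2.22). In the shallow cluster, led by AW112010 (20 and 21 cells), 3 and 10 UMIs were counted, a ratio of 3.26 with an interval of 0.838 to 18.4 that holds 1. Over all ECs, the normoxia and hypoxia levels of Apln were 82.5 and 132 CPM, at a ratio of 1.60 (1.36 to 1.90). This figure moves with the makeup of the class, as it was 1.11 without the 3 general capillary clusters led by immediate-early genes, whereas the aerocyte ratio does not involve those cells. Weighted over the 5 subtypes with at least 10 cells in each library, the Mantel-Haenszel ratio was 1.85 (1.56 to 2.19). In general capillary and Ntrk2-led ECs together the ratio was 2.16 (1.10 to 4.33), at levels far below those of aerocytes.

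A further set of Apln-bearing cells lay above the limit of 4000 detected genes. In hypoxia 9 of the 13 cells over this limit held Apln, with 1 to 23 UMIs a cell and 92 in all, a level of 599 CPM (483 to 734). All 9 held Car4 and Ednrb transcripts, and 0 held Epcam, Ptprc or Col1a2. A UMI of Sftpc, a surfactant gene of alveolar type 2 (AT2) cells, was found in 7 of the 9. At least 3 markers of AT2 or airway cells were found in 1 of them. The 9 cells also held 12 Aplnr UMIs, in 7 of 9 cells (78.1 CPM). This level lay between the 8.94 CPM of kept aerocytes and the 166 CPM of kept general capillary and Ntrk2-led ECs. Gpihbp1 and Cd93, which mark general capillary ECs, were likewise between both groups, at 371 CPM against 98.4 and 1179 for Gpihbp1 and at 481 against 68.6 and 1544 for Cd93. In normoxia 3 cells over the limit held Car4, Ednrb and Apln. With a limit of 6000 genes, the Apln ratio over all ECs was 2.01. The part of joined droplets in these values was not tested.

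Aplnr showed the reverse distribution, being high in general capillary and Ntrk2-led ECs and near its floor in aerocytes. Aplnr (ENSMUSG00000044338) is a gene of 1 exon at chr2:85136225-85139923 on the plus strand. General capillary ECs held 395 UMIs in normoxia (166 CPM, 149.8 to 183) and 63 in hypoxia (191 CPM, 147 to 244). Ntrk2-led ECs stood at 242 CPM (97.4 to 499) from 7 UMIs in normoxia and at 159 CPM (136 to 184) from 177 UMIs in hypoxia. The intervals of these 4 values overlap, and the Ntrk2-led level of hypoxia was 0.830 times (0.620 to 1.13) the general capillary level of the same library. Aerocytes held 7 UMIs (10.00 CPM) in normoxia and 3 (8.94 CPM) in hypoxia, which is 0.0699 times (0.0279 to 0.145) and 0.0636 times (0.0130 to 0.188) the level of the other ECs. Arterial ECs stood at 24.4 and 23.4 CPM from 3 and 2 UMIs, and venous ECs at 20.4 CPM from 6 UMIs in normoxia and 0 UMIs in hypoxia. These low groups cannot be ordered among themselves within their counting error. Lymphatic ECs held 0 Aplnr UMIs, in 11 and 5 cells.

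An Aplnr UMI was found in 36.1% of general capillary ECs in normoxia, 32.0% in hypoxia and 37.1% of the Ntrk2-led ECs of hypoxia. Thinned to 1000 UMIs, these shares were 15.2%, 17.0% and 16.5%. The Pdgfra-led fibroblast-like cells of normoxia held an Aplnr UMI in 0 of 83 cells, with an upper bound of 4.35% for the share of such cells. The level of Aplnr did not differ between the libraries beyond counting error. The ratio of hypoxia to normoxia was 1.15 (0.869 to 1.51) in general capillary ECs, 0.996 (0.846 to 1.17) with the Ntrk2-led ECs added, and 1.02 (0.869 to 1.20) over all ECs (117 and 119 CPM). Under 2 alternatives the interval left 1, in opposite directions, at 1.22 (1.01 to 1.48) over all ECs without the clusters led by immediate-early genes and at 0.818 (0.675 to 0.992) in general capillary ECs with each library clustered alone. General capillary ECs were 7.99 times (5.33 to 12.5) the other ECs in normoxia and 1.80 times (1.33 to 2.41) in hypoxia, where the other ECs are mostly Ntrk2-led cells with a like level. The normoxia value depended on the clustering and ran from 2.29 with marker gates to 11.8 at a Leiden resolution of 1. At least 1.5-fold higher in general capillary ECs were 12.8% of genes in normoxia and 15.9% in hypoxia. Among the general capillary clusters of normoxia, Aplnr ranged from 78.7 CPM (4 UMIs, led by Mrpl52) to 311 CPM (29 UMIs, led by Gm26917).

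Ligand and receptor of the apelin pair were mostly found in different ECs. In cells thinned to 1000 UMIs, 0 of 34 ECs with an Apln UMI held Aplnr in normoxia (up to 10.3%), against 94 of 765 without one (12.3%). In hypoxia the counts were 0 of 27 (up to 12.8%) and 59 of 450 (13.1%). These intervals overlap those of the cells without Apln, because few UMIs of either gene are left at this depth. In cells thinned to 2000 UMIs, Aplnr was found in 3.70% of ECs with Apln and 20.03% of those without in normoxia, and in 2.44% and 22.1% in hypoxia. Of the 871 unthinned ECs of normoxia, 12 held both transcripts, 81 Apln alone, 237 Aplnr alone and 541 neither. Of the 592 of hypoxia, 10 held both, 54 Apln alone, 144 Aplnr alone and 384 neither. The few aerocytes with an Aplnr UMI, 4 in normoxia and 2 in hypoxia, all held Apln as well.

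**Figure D2:**
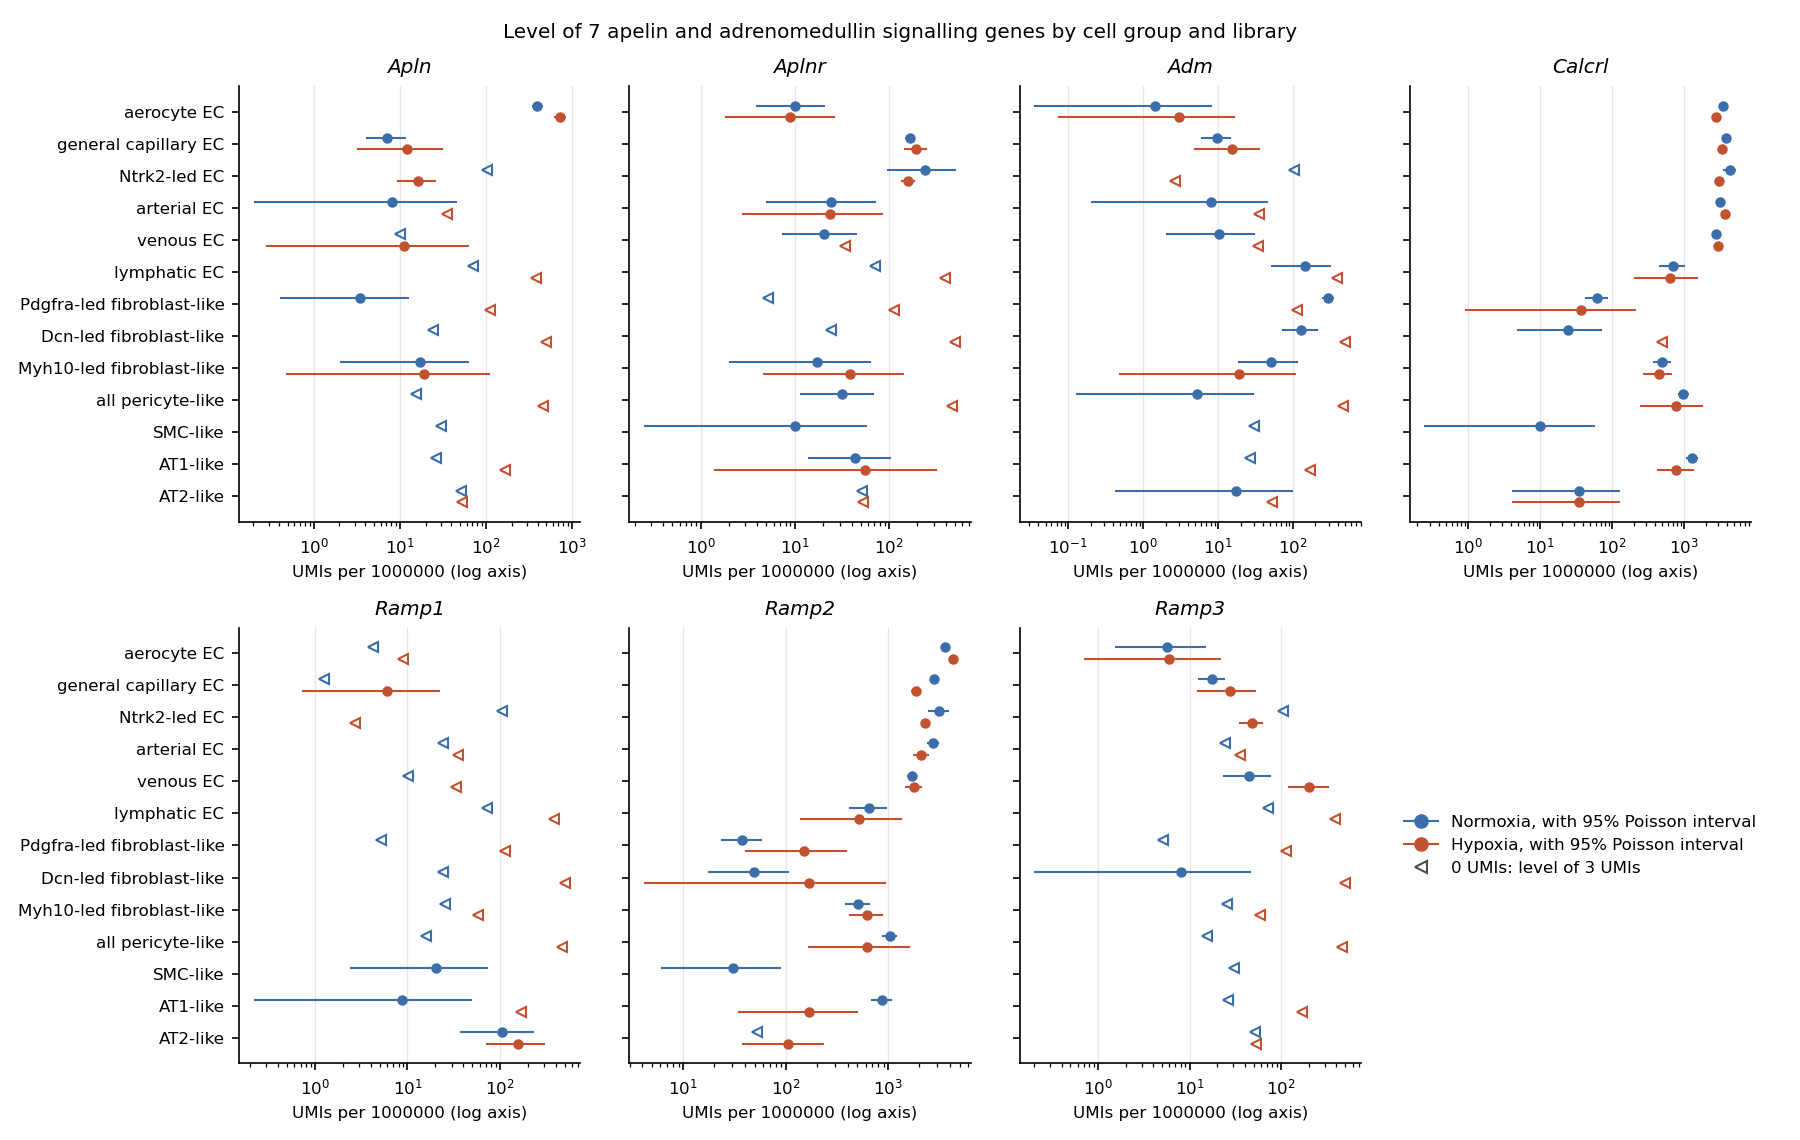
Level of each gene in UMIs per 1000000 on a log axis, by cell group (rows) and library (blue normoxia, red hypoxia), with points for the level, bars for the 95% Poisson interval and open triangles for the level of 3 UMIs where 0 were counted. Apln is high in aerocytes (396 and 730.3 CPM) and Aplnr in general capillary ECs (166 and 191 CPM), whereas Calcrl and Ramp2 are high in all named blood vessel ECs and low in lymphatic ECs, and Adm is high in Pdgfra-led fibroblast-like cells of normoxia (293 CPM).

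Adm was highest in fibroblast-like cells led by Pdgfra and low in blood vessel ECs. The gene (ENSMUSG00000030790) lies at chr7:110627661-110629820 on the plus strand and overlaps Gm28863 on the other strand. In normoxia, fibroblast-like cells led by Pdgfra held 171 Adm UMIs, a level of 293 CPM (251 to 341), in 49 of 83 cells (59.0%, or 19.3% when thinned to 1000 UMIs), with up to 20 UMIs in a cell. Fibroblast-like cells led by Dcn held 16 UMIs (129.7 CPM, 74.1 to 211) in 14 cells, and those led by Myh10 held 6 UMIs (51.5 CPM) in 92 cells. Pericyte-like cells held 1 UMI in 48 cells and smooth muscle-like cells 0 in 16, so that the transcript was not spread over all mesenchymal cells at this depth. The hypoxia library held 4, 1 and 30 cells of the 3 fibroblast-like groups, with 0, 0 and 1 Adm UMIs. In the 4 Pdgfra-led cells, 3 UMIs would be 112 CPM. The summed ratio of hypoxia to normoxia in fibroblast-like cells, 0.0505 (0.00127 to 0.285, from 193 and 1 UMIs), therefore compares 83 Pdgfra-led cells among 189 with 4 among 35, and 31.6% of all genes with at least 50 UMIs were at least 1.5-fold lower there. Adm in these cells could not be compared between the libraries.

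Among ECs, Adm was low except in the few lymphatic cells. Lymphatic ECs of normoxia held 6 UMIs in 3 of 11 cells, a level of 143 CPM (52.6 to 312) that was 18.2 times (6.15 to 44.7) that of the other ECs and whose wide interval overlaps those of Dcn-led and Pdgfra-led fibroblast-like cells. General capillary ECs stood at 9.65 CPM (23 UMIs) in normoxia and 15.2 CPM (5 UMIs) in hypoxia, and aerocytes held 1 UMI in each library. The 291 Ntrk2-led ECs of hypoxia held 0, where 3 UMIs would be 2.69 CPM. Over all ECs the levels of Adm were 9.48 CPM (normoxia) and 3.36 CPM (hypoxia), at a ratio of 0.354 (0.133 to 0.812) from 34 and 7 UMIs. Weighted over subtypes the ratio was 1.20 (0.503 to 2.86), in which the Ntrk2-led ECs, with 0 Adm UMIs in both libraries, add nothing. The direction for Adm in ECs thus turned with the handling of subtypes and rests on 41 UMIs. No EC group of the hypoxia library showed a level of Adm above that of normoxia beyond counting error.

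Calcrl was found throughout the named subtypes of blood vessel ECs. The gene (ENSMUSG00000059588) spans chr2:84330626-84425411 on the minus strand. It was detected in 96.1% of ECs in normoxia and 89.2% in hypoxia, or in 91.2% and 86.2% when thinned. Its level in normoxia was 4361 CPM in Ntrk2-led, 3782 in general capillary, 3429 in aerocyte, 3142 in arterial and 2755 in venous ECs. The intervals of neighbours in this order overlap for Ntrk2-led and general capillary ECs (3633 to 5192 and 3704 to 3861), for aerocytes and arterial ECs (3293 to 3569 and 2836 to 3472), and for arterial and venous ECs (2568 to 2951 for the latter). In hypoxia the order was 3744 in arterial, 3407 in general capillary, 3082 in Ntrk2-led, 3012 in venous and 2811 in aerocyte ECs. The arterial and venous levels there rest on 320 and 267 UMIs, and their intervals overlap those of their neighbours in this order. Lymphatic ECs were lower, at 693 CPM (464 to 996) in normoxia and 645 CPM from 5 UMIs in hypoxia. The lymphatic level was 0.193 times (0.129 to 0.277) that of other ECs in normoxia, where 41.9% of genes with at least 50 UMIs were at least 1.5-fold lower in lymphatic ECs.

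The Calcrl level was lower in the hypoxia library over all ECs, at 3009 CPM against 3561 CPM, a ratio of 0.845 (0.820 to 0.871). It was lower in aerocytes at 0.820 (0.759 to 0.884), in general capillary ECs at 0.901 (0.846 to 0.959) and in Ntrk2-led ECs at 0.707 (0.592 to 0.851). In arterial ECs the ratio lay on the other side of 1, at 1.19 (1.02 to 1.39), and in venous ECs it was 1.09 (0.948 to 1.26). All of these are within 1.5-fold. In the ECs of no subtype (8 and 77 cells) the ratio was 1.72 (1.02 to 3.14), from 15 and 178 UMIs. This is a log2 ratio of 0.78, where the median log2 ratio of all genes with at least 50 UMIs was 0.46. In Ntrk2-led ECs that median was 0.24. In general capillary ECs the clusters differed more than the libraries, since the Gm26917-led cluster stood at 5466 CPM in normoxia and 4177 CPM in hypoxia and the Socs3-led cluster at 3143 and 2641 CPM.

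Ramp2, the partner that makes Calcrl an adrenomedullin receptor, was also found throughout the blood vessel ECs and low in lymphatic ECs, but was highest in aerocytes. Ramp2 (ENSMUSG00000001240) lies at chr11:101246028-101259546 on the plus strand and overlaps Vps25 on the same strand, so reads from the shared stretch are uncertain. It was found in 93.7% of ECs in normoxia and 85.6% in hypoxia, or in 86.0% and 80.7% when thinned. Aerocytes had 3581 CPM (3442 to 3724) in normoxia and 4239 CPM (4021 to 4465) in hypoxia, above general capillary ECs with 2797 (2730.1 to 2865) and 1863 (1718 to 2016). The 14 Ntrk2-led ECs of normoxia, at 3115 CPM (2505 to 3829), overlapped the aerocytes. Venous ECs had 1703 and 1760 CPM and lymphatic ECs 646 and 516. Aerocytes were 1.35 times (1.29 to 1.42) the other ECs in normoxia and 2.03 times (1.91 to 2.16) in hypoxia. The direction between libraries differed by subtype. In aerocytes Ramp2 was 1.18-fold (1.11 to 1.26) higher in hypoxia. In general capillary ECs the ratio was 0.666 (0.612 to 0.723), in Ntrk2-led ECs 0.738 (0.598 to 0.921), in arterial ECs 0.766 (0.635 to 0.922), in venous ECs 1.03 (0.858 to 1.24), and over all ECs 0.861 (0.832 to 0.891). In general capillary ECs 14.3% of genes were at least 1.5-fold lower in hypoxia. The general capillary ratio of Ramp2 also moved with the clusters behind it. Within the Gm26917-led cluster, which holds most of these cells in hypoxia, Ramp2 differed little between normoxia (1643 CPM, 1393 to 1925) and hypoxia (1569 CPM, 1380.1 to 1777), whereas within the Socs3-led cluster it was 2981 CPM (2821 to 3147) and 2325 CPM (2046 to 2632).

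Outside the ECs, the counts of Calcrl and Ramp2 were set against those of the 4 EC transcripts in the same cells. The 4 EC transcripts stood outside the EC-like clusters at 13.5% of their EC level in normoxia and 16.8% in hypoxia. An unnamed cluster of shallow cells (133 and 30) gave 544 of their 1839 UMIs in normoxia and 128 of 314 in hypoxia. They reached 51.6% and 55.4% of the EC level in it, and whether its cells are ECs was not tested. Calcrl counts outside the EC-like clusters were 1.04 times (0.969 to 1.11) what its EC quotient to these transcripts gives in normoxia and 0.883 times (0.714 to 1.08) in hypoxia. Ramp2 counts were 1.12 times (1.03 to 1.20) and 0.965 times (0.768 to 1.20) that value. In the pericyte-like cells led by Ndufa4l2, where EC transcripts reached 80.5% of the EC level, the Calcrl quotient was 0.702 (0.592 to 0.827), and in alveolar type 1-like (AT1-like) cells it was 1.41 (1.19 to 1.65) in normoxia. The Ramp2 quotient was above 1 in platelet-like cells of normoxia, at 1.55 (1.22 to 1.93). In those of hypoxia it was 2.65 (1.15 to 5.23), from 8 Ramp2 UMIs and 11 UMIs of the EC transcripts. In alveolar type 2-like (AT2-like) and Pdgfra-led cells of hypoxia it was 7.30 (2.68 to 15.9) and 4.87 (1.33 to 12.5). These rest on 6 and 4 Ramp2 UMIs and on 3 UMIs of the EC transcripts in each group. The intervals of all these quotients leave out the counting error of the EC transcripts. They are therefore too narrow where those transcripts are few, as in these 3 groups of hypoxia. The part of free EC transcripts in these counts was not tested. Ramp2 was found in 86.6% of thinned ECs with Calcrl and 80.0% of those without in normoxia, and in 81.3% and 77.3% in hypoxia, at overlapping intervals. Thinned to 2000 UMIs the shares were 97.2% (95.6 to 98.3) and 76.2% (52.8 to 91.8, 21 cells) in normoxia, which do not overlap, and 95.2% and 91.7% in hypoxia, which do.

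Ramp3, the other partner of the adrenomedullin receptor, was a low transcript of venous ECs, general capillary ECs and the Ntrk2-led ECs of hypoxia. The gene (ENSMUSG00000041046) lies at chr11:6658521-6677475 on the plus strand and overlaps Gm11978 on the other strand. Venous ECs held 13 UMIs in 10 of 51 cells in normoxia (44.3 CPM, 23.6 to 75.7) and 18 UMIs in 9 of 20 cells in hypoxia (203 CPM, 120.3 to 321). The level of venous ECs was 3.17 times (1.57 to 5.97) that of the other ECs in normoxia and 6.05 times (3.38 to 10.3) in hypoxia. Among all genes with at least 50 UMIs, 10.9% and 17.6% were at least 1.5-fold higher in venous ECs. General capillary ECs stood at 17.6 CPM (42 UMIs) and 27.3 CPM (9 UMIs), and the Ntrk2-led ECs of hypoxia at 47.5 CPM (53 UMIs). The 14 Ntrk2-led ECs of normoxia held 0, where 3 UMIs would be 104 CPM, so nothing can be said of them. Aerocytes held 4 and 2 UMIs and arterial ECs 0 in both libraries. Outside ECs there were 2 UMIs in normoxia and 1 in hypoxia.

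Ramp3 was higher in hypoxia over all ECs, at 40.8 CPM against 16.4 CPM (85 and 59 UMIs), a ratio of 2.48 (1.76 to 3.52). Of the 85 UMIs, 53 were in the Ntrk2-led ECs, which had 14 cells and 0 Ramp3 UMIs in normoxia, and 18 in venous ECs. Within subtypes, only the ratio of venous ECs had an interval that did not hold 1. Weighted over subtypes the ratio was 2.59 (1.61 to 4.18). It was 4.59 (2.12 to 10.2) in venous ECs, where 14.9% of genes with at least 50 UMIs were at least 1.5-fold higher, a minimum that its own 13 and 18 UMIs did not reach, and 1.55 with an interval that holds 1 (0.663 to 3.23) in general capillary ECs. The venous counts are few, with at most 2 UMIs in a cell of normoxia and 4 in hypoxia, and 3 cells gave 46.2% and 55.6% of them. Thinned to 1000 UMIs, Ramp3 was found in 4 of 51 venous ECs of normoxia (7.84%) and 2 of 20 of hypoxia (10%), with overlapping intervals. In ECs with Calcrl after thinning to 1000 UMIs, Ramp3 was found in 2.06% (1.16 to 3.37) in normoxia and 3.41% (1.87 to 5.65) in hypoxia. In ECs without Calcrl it was found in 2.86% (2 of 70) and 1.52% (1 of 66). All of these intervals overlap.

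Ramp1, which turns Calcrl into the receptor for calcitonin gene-related peptide, was almost absent from ECs. The gene (ENSMUSG00000034353) lies at chr1:91179822-91225196 on the plus strand. ECs held 0 UMIs in normoxia, where 3 UMIs would be 0.836 CPM, and 2 in hypoxia. Of the 16 Ramp1 UMIs of kept normoxia cells, 6 were in 3 of 7 AT2-like cells (104 CPM, 38.1 to 226) and 6 in a cluster with mixed leukocyte genes. In hypoxia 9 of the 11 UMIs were in 3 of 8 AT2-like cells (158 CPM, 72.0 to 299).

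**Figure D3:**
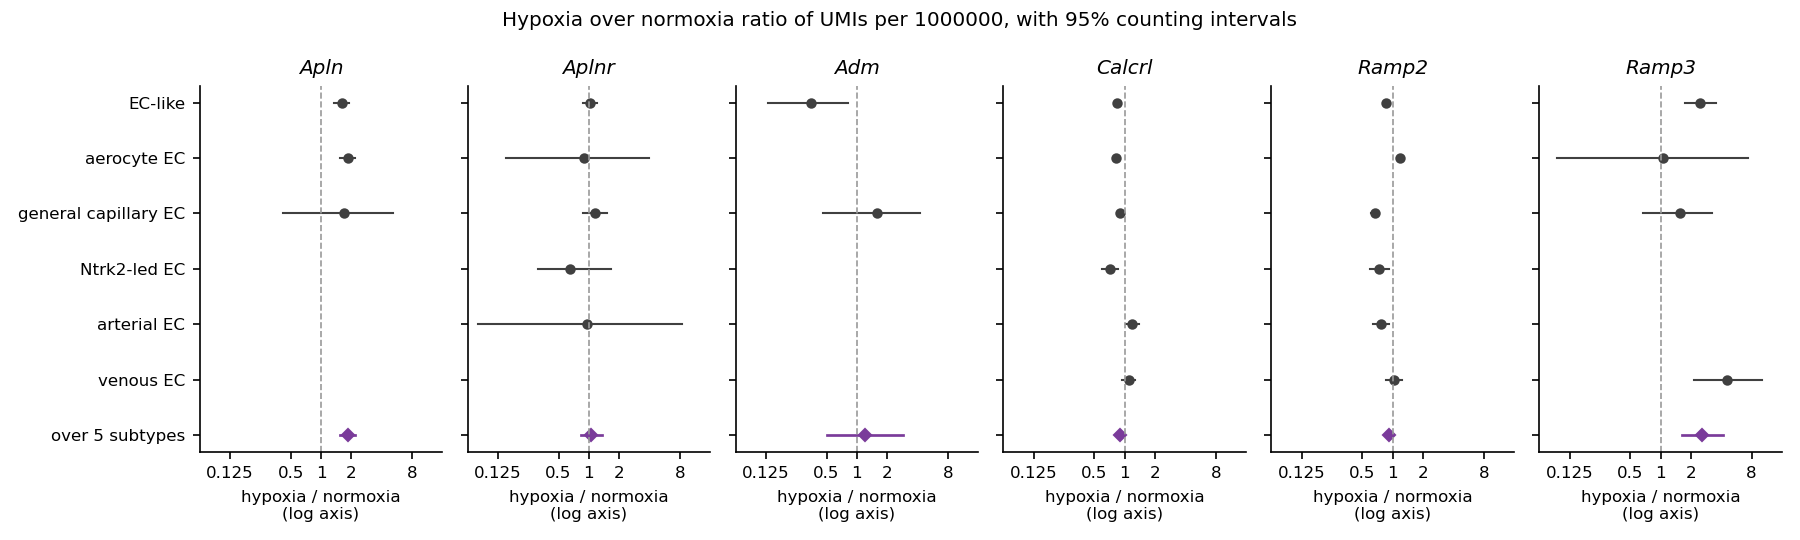
Ratio of UMIs per 1000000 in hypoxia to normoxia on a log axis for 6 genes, over all ECs, within subtypes (dark points) and weighted over 5 subtypes (purple diamonds), with bars for 95% counting intervals, the dashed line at 1, and ratios not drawn where a library held too few UMIs. Apln in aerocytes (1.85) and Ramp3 in venous ECs (4.59) lie right of 1, and Calcrl and Ramp2 lie on both sides of 1 by subtype, down to 0.666 for Ramp2 in general capillary ECs and 0.707 for Calcrl in Ntrk2-led ECs.

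Set against all genes, the 7 members did not share a direction. Of the 7, 5 had at least 50 UMIs in ECs, and Apln and Ramp3 were at least 1.5-fold higher in hypoxia, where 7.89% of 8745 genes were. None of the 5 was at least 1.5-fold lower, where 9.83% of genes were. Adm with 41 UMIs and Ramp1 with 2 did not reach the minimum.

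The other genes of both pathways were taken from a list of 53 ligands, receptors, peptidases and signalling genes. In ECs 41 of them had at least 50 UMIs, of which 2 were at least 1.5-fold higher and 8 lower in hypoxia. The median log2 ratio of the list was -0.05, and that of all genes was 0.03. In aerocytes 1 of 21 was higher and 3 lower, and in general capillary and Ntrk2-led ECs 3 of 37 were higher and 7 lower. The shares of all genes were 8.55% and 10.8% in aerocytes and 10.1% and 9.77% in the latter group. In ECs the list thus held proportionally more lower and fewer higher genes than all genes did, which is a description with no test.

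Among peptides related to the ligands, Apela, the second ligand of Aplnr, and Adm2, Calca, Calcb and Iapp of the calcitonin family were at 0 UMIs in ECs of either library. Ece1, a membrane peptidase that cleaves peptide hormones, was lower in hypoxia (375 CPM) than in normoxia (712 CPM), with a ratio of 0.527 (0.486 to 0.571). The difference ran through aerocytes (496 and 259 CPM), general capillary ECs (738 and 391) and venous ECs (1056 and 553). Pam, the enzyme that amidates adrenomedullin, had a ratio of 0.676 (0.602 to 0.757), yet in aerocytes it stood at 457 and 486 CPM. Cpe, a carboxypeptidase of prohormone processing, was counted 111 times in normoxia and 14 times in hypoxia (0.217, 0.115 to 0.380). General capillary and Ntrk2-led ECs together held 4 Cpe UMIs in each library and aerocytes 0, so that the ratio over all ECs rests on the other, smaller subtypes. Pcsk5, a proprotein convertase, was 1.54-fold (1.22 to 1.94) higher in hypoxia.

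Both atypical receptors of the list, which have been linked to adrenomedullin, differed by vessel type. Gpr182 was higher in venous ECs (303 CPM in normoxia and 259 in hypoxia) than in general capillary ECs (222 and 106). Over all ECs its ratio was 0.498 (0.421 to 0.587), from 646 and 187 UMIs. Ackr3, which takes up adrenomedullin and Cxcl12, stood at 674 and 575 CPM in venous ECs, at 111 and 194 in general capillary ECs and at 12.9 and 20.9 in aerocytes, with a ratio over all ECs of 1.17 (1.02 to 1.35). Of the signalling genes, Nos3, the endothelial nitric oxide synthase, was 1.81-fold (1.40 to 2.33) higher in hypoxia (34.3 and 61.9 CPM). Pde4b, which degrades cyclic AMP, had a ratio of 0.561 (0.488 to 0.644), and Klf2, a shear-responsive transcription factor, one of 0.724 (0.694 to 0.755). The other genes of the list past 1.5-fold were Grk5 (0.574), Grk3 (0.420) and Adcy6 (0.566), all lower. Grk3 and Grk5 encode kinases of G protein-coupled receptors and Adcy6 an adenylyl cyclase.

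**Figure D4:**
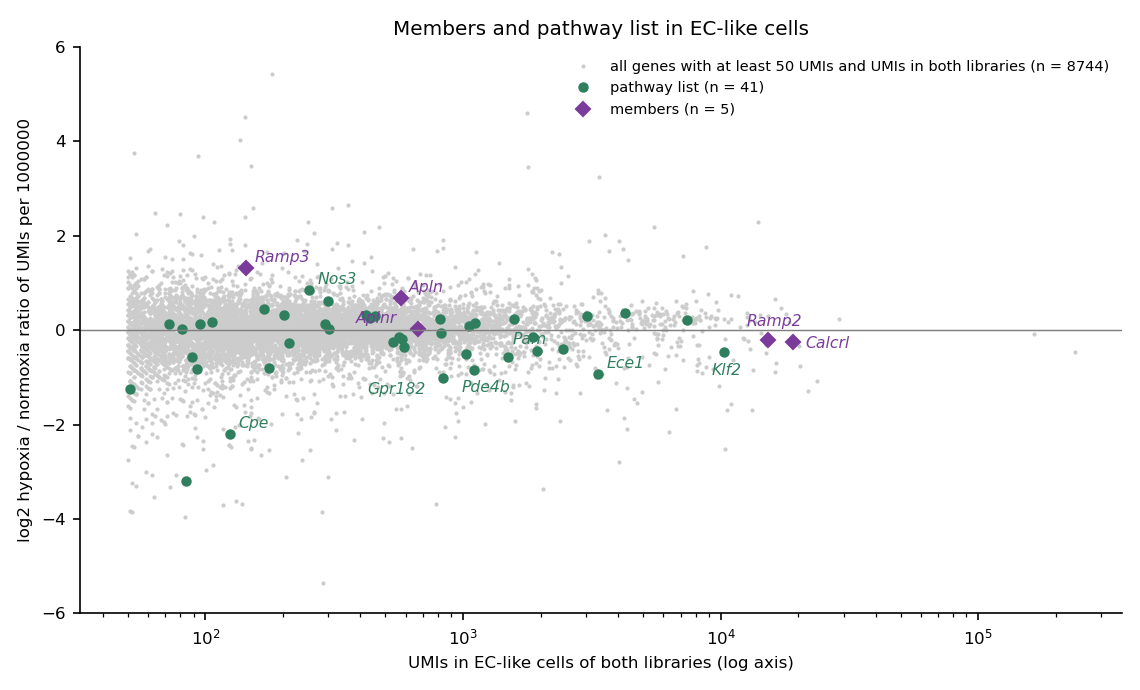
Log2 ratio of UMIs per 1000000 in hypoxia to normoxia in ECs against the UMIs of both libraries on a log axis, for 5 of the 7 genes (purple), 41 genes of the pathway list (green) and all other genes with at least 50 UMIs (grey). Ramp3 and Apln lie above 0, Aplnr, Calcrl and Ramp2 close to it, and Cpe is the lowest named gene of the list.

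Genes with the most similar levels over cell groups were sought for each member, as the Pearson correlation of log2(CPM + 10) over 17 groups (10 in normoxia and 7 in hypoxia), which share their libraries. For Apln these were Ednrb (0.90), Ccdc184 (0.90) and Kitl (0.89), of which Ednrb had served as an aerocyte marker. For Aplnr they were Sema3g, Atp2a3 and Sox17 (0.85, 0.85 and 0.83), of which Sox17 had served as an arterial EC marker. Calcrl was closest to Cd36 (0.98), Dock9 and Gata2, and Ramp2 to Cldn5 (0.98), Tspan13 and Cdh5, which are genes of ECs as a whole. Cldn5 and Cdh5 had served as EC markers in naming the groups. Adm was close to Slc1a3 (0.92) and Macf1 (0.91). For Ramp3 (Ncoa7, Tmem252 and Lrg1, 0.87 to 0.85) and Ramp1 (Mal2, Hs2st1 and Tmem63b, 0.74 to 0.72) the counts were few, and 0 of the 3 genes remained for Apln and for Ramp3 with a pseudocount of 1.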

How the data were processed

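Single-cell RNA was measured in 1 normoxia and 1 hypoxia library of mouse lung (10x 3′ chemistry). The authors deposited UMI counts per gene and cell, made with Cell Ranger 6.1.2 per the file headers, against mm10 per the labels. Members and gene lists were chosen with earlier results of these data known.

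Cells were kept with 200 to 4000 genes, the limits in the results text of the study (its methods give 6000 as the upper one, tried as an alternative), and no more than 5% of UMIs from mitochondrial genes. Counts were scaled to 10000 per cell, log-transformed and clustered (scanpy 1.11.5, 2000 variable genes without the 7 members, 30 components, 15 neighbours, Leiden resolution 2). A cluster was named from markers where at least 3 were found in at least 25% of its cells, and a subtype needed a mean log2 difference of at least 0.25. These naming limits, and the names by leading gene, were set after the clusters were seen, and clusters of mixed leukocyte genes or shallow cells stayed unnamed. Scrublet called 3 of 1348 cells (0.223%) and 0 of 689 as doublets, too few to count as a working call, so no doublets were removed for the main values. Their removal was an alternative for the ratios over all ECs, and with so few cells it could change little. The libraries shared 1 barcode before and 0 after the limits.

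Raw counts were summed per group and library. Levels carry exact Poisson intervals, ratios exact conditional binomial intervals and shares Clopper-Pearson intervals, all at 95% and all covering counting error only. Where 0 UMIs were counted, 3 counts set the floor of a level, and the upper Clopper-Pearson bound is given for a share. Ratios were also pooled over subtypes with at least 10 cells in each library (Mantel-Haenszel). There was no test between conditions. The ratio intervals were run on counts simulated under the Poisson model that they assume, without added spread between cells or libraries. Such a run cannot show how they hold for these data. Named genes are the 7 members, the 8 genes of the pathway list with at least 50 UMIs whose interval bound lies farthest from 1, its ligands, receptors and peptidases, the 3 genes closest to each member (a few genes under this rule are not reported here), and, named after their values were seen, the remaining list genes past 1.5-fold in ECs and Gpihbp1, Cd93, Car4 and Ednrb in cells over the limit. Analyses used scipy 1.17.1, numpy 2.4.6 and pandas 2.3.3. Coordinates come from the GRCm38 annotation and upstream sequences from RefSeq GRCm38.p6, which had 5 of the 7 genes in the table used here (not Aplnr and Ramp2). Alternatives tried were other limits on cells, removal of the called doublets, other clustering resolutions, clustering each library alone, gates in place of clusters, other scalings, depths and pseudocounts.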

Additional observations from a re-analysis of the deposited data

Results flagged for a closer look

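Calcrl and Ramp2 had ratios of hypoxia to normoxia on different sides of 1 in different EC subtypes, and these differences between subtypes were not tested. Calcrl was higher in hypoxia in arterial ECs (1.19) and lower in aerocytes (0.820), general capillary ECs (0.901) and Ntrk2-led ECs (0.707). Ramp2 was higher in aerocytes (1.18) and lower in general capillary (0.666), Ntrk2-led (0.738) and arterial ECs (0.766). In arterial ECs (22 and 17 cells) and in aerocytes (119 and 60) the receptor and its partner thus had ratios on opposite sides of 1.

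Among cells outside the limits, which the comparisons do not use, Apln, Calcrl and Ramp2 stood at higher levels in hypoxia than in normoxia. In the 120 hypoxia cells removed by the limits, Apln stood at 243 CPM (197 to 297) against 13.0 CPM (8.91 to 18.4) in the 875 removed cells of normoxia. These cells held 25.4% of all Apln UMIs of the hypoxia library, and 92 of the 95 were in the 9 cells over 4000 genes. Calcrl stood at 1703 CPM against 1184 CPM and Ramp2 at 1598 CPM against 766 CPM. Of these hypoxia UMIs, 445 of 665 for Calcrl and 461 of 624 for Ramp2 were in the 13 cells over 4000 genes. The removed cells were mostly over the mitochondrial limit in both libraries (835 of 875 in normoxia and 107 of 120 in hypoxia). In cells over that limit, Calcrl stood at 1383 CPM (1206 to 1578) in hypoxia and 1286 CPM (1234 to 1340) in normoxia, at overlapping intervals. Ramp2 stood there at 1025 CPM (873 to 1195) and 790 CPM (749 to 832), which do not overlap. The part of damaged cells in these values was not tested.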

How the results depend on the processing

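No paired analysis was possible because only 1 library was made for each condition. Under the alternatives 141 values behind the comparisons moved by less than their counting interval and 44 by more. For the other values computed again, such as levels and the Calcrl ratios within subtypes, these counts were 54 and 9. The Calcrl ratio ran from 0.727 to 0.840 in aerocytes and from 0.665 to 0.972 in general capillary ECs. Among the values computed again, no main value whose interval excluded 1 changed sides. Ratios within arterial ECs, Ntrk2-led ECs and ECs of no subtype were not computed again, nor was that of general capillary and Ntrk2-led ECs together. Nothing is known of how these depend on the processing. The cause of each move was not tested. Leaving out the 3 clusters led by immediate-early genes was chosen after seeing the data. It gave all-EC ratios of 1.11 for Apln (0.934 to 1.31, which holds 1), 1.22 for Aplnr (1.01 to 1.48), 0.819 for Calcrl and 0.824 for Ramp2, a general capillary Ramp2 ratio of 0.542 and a weighted Adm ratio of 0.387. A limit of 6000 genes gave 2.01 for Apln over all ECs, weighted ratios of 0.862 for Calcrl and 0.850 for Ramp2, Ramp2 ratios of 1.10 in aerocytes and 0.580 in general capillary ECs, and 2.98 for Aplnr in general capillary over other ECs of normoxia. That last value was 2.43 with each library clustered alone, 2.29 with marker gates and 5.08 as a mean over cells, against 11.8 at resolution 1. Clustering alone and gates gave weighted ratios of 0.367 and 0.344 for Adm, on the other side of 1 from its main value of 1.20 and from the 2.70 (1.20 to 6.04) under a limit of 10% mitochondrial UMIs. They gave weighted ratios of 0.813 and 0.849 for Calcrl and general capillary Ramp2 ratios of 0.784 and 0.783. Resolution 1 gave 0.876 for Calcrl and 0.902 for Ramp2 over all ECs, and resolution 3 gave 0.609 for Ramp2 in general capillary ECs. A limit of 10% mitochondrial UMIs gave 0.901 for Ramp2 over all ECs and 0.990 weighted (0.944 to 1.04). Median-ratio scaling gave 0.811 for Calcrl and 0.827 for Ramp2, and means over cells 0.768 and 0.749.

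Shares move with depth by construction. At 500 and 2000 UMIs Apln was found in 12.6% and 51.0% of aerocytes of normoxia and in 20% and 77.5% in hypoxia. Aplnr was found in 7.74% and 25% of general capillary ECs of normoxia, and in 30.3% at 2000 UMIs in hypoxia. In ECs without Apln it was found in 6.32% and 20.03% in normoxia and in 5.56% and 22.1% in hypoxia. With a pseudocount of 1, 0 of the 3 closest genes remained for Apln and Ramp3 and 1 for Adm.

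The Apln ratio in aerocytes ran from 1.73 to 1.89 over its alternatives, that of Ramp3 from 2.31 to 2.98 over all ECs and from 3.57 to 5.48 in venous ECs. The venous ratio had no value under gates, which hold no venous gate, and weighted ratios none for means over cells. Depth limits Adm, Ramp1 and Ramp3 most, as 41, 2 and 144 of their UMIs lay in ECs.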

Other observations

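Ramp1 was found mostly in cells that the limits removed. In normoxia 133 of its UMIs, 89.3% of those in the library, lay in 38 of the 875 removed cells, a level of 54.1 CPM (45.3 to 64.1). Of these UMIs 98 were in 32 cells over 5% mitochondrial UMIs and 35 in 6 cells over 4000 genes. The 38 cells had a median of 16258 UMIs, and 29 of them held at least 3 markers of AT2 or airway cells, 31 a Sftpc UMI and 36 a UMI of Epcam, Ptprc or Col1a2. Sftpc encodes a surfactant protein of AT2 cells, and Epcam is the target of the CD326 depletion. The removed cells of hypoxia held 1 Ramp1 UMI. Among kept cells Ramp1 also lay in AT2-like cells, with 6 of 16 UMIs in normoxia and 9 of 11 in hypoxia, and the other kept UMIs of normoxia were mostly in the cluster of mixed leukocyte genes.

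Adm was also concentrated in few removed cells of hypoxia, where 13 UMIs were in 3 cells over 4000 genes and 11 of these in 1 cell.

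Mme, a membrane peptidase that cleaves peptide hormones including adrenomedullin, was counted in fibroblast-like and alveolar cells. In normoxia, Pdgfra-led cells held 166 Mme UMIs (285 CPM) and Myh10-led cells, where Adm was low, held 35 (300.3 CPM). AT2-like cells stood at 208 CPM (107 to 363) in 7 cells of normoxia and at 333 CPM in 8 cells of hypoxia. AT1-like cells stood at 26.4 CPM (5.44 to 77.2) from 3 UMIs in 47 cells of normoxia, which is the floor of a level there. In 12 AT1-like cells of hypoxia the level was 449 CPM. These alveolar values rest on few cells and counts. All ECs held 25 Mme UMIs in normoxia and 1 in hypoxia.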
